A study of Mus musculus with 47 samples.

Results

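A set of 10 genes of DNA replication and cell division were followed in the brains of 3xTg mice: the helicase subunits Mcm2, Mcm3, Mcm4, Mcm5, Mcm6 and Mcm7, the sliding clamp Pcna, and the cycling-cell genes Mki67, Top2a and Cdk1. They were taken as a named list of 10 of the 55416 genes in the count tables, and each was found by its symbol and Ensembl identifier in both the male and the female table. The products of Mcm2 to Mcm7 form a ring that is loaded on DNA before replication starts, and that later unwinds DNA at the fork as the motor of the replicative helicase. Pcna is the clamp that holds the replicative polymerases on DNA and also serves in DNA repair, so it is made by many cells that do not divide. Mki67 coats the chromosomes of dividing cells, Top2a is the topoisomerase that untangles sister chromatids, and Cdk1 is the kinase that drives cells into mitosis. In the adult brain, few cells divide: oligodendrocyte precursors, the neural stem cells of the ventricle wall and hippocampus with their progeny, and some microglia and vessel cells.

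The mice were homozygous for the 3xTg alleles APPSwe, tauP301L and PS1M146V, a model of Alzheimer's disease in which human APP and tau transgenes are carried with a mutant presenilin. All groups carried this genotype, and no non-transgenic library was analysed here. From 6 months of age, males and females were fed a Control diet or a diet restricted in isoleucine (IleR), leucine (LeuR) or valine (ValR) for 9 months, so that brains were taken at about 15 months. Of 47 labelled libraries, 37 were analysed: 4 Control, 3 IleR, 3 LeuR and 4 ValR from males, and 6 Control, 5 IleR, 6 LeuR and 6 ValR from females. The study's methods describe RNA from the left hemisphere, while the extraction text of the labels names another organ, and 10 pan-neuronal and 10 astrocyte markers summed to 4928 to 8108 and 3445 to 6017 CPM over all libraries. Each library is named here by its diet followed by its label number.

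The libraries held between 12682687 and 25722333 expected counts in males and between 10672599 and 21370973 in females. They differed in the brain regions they contained. To describe this, the mean log2 CPM (counts of a gene scaled to a common library size) of 16 forebrain genes was subtracted from that of 32 cerebellar and brainstem genes, and the difference is called the hindbrain score. In males, the score lay from -7.11 to -4.31 in Control, from 1.42 to 3.52 in IleR, from -3.48 to 3.72 in LeuR and from 3.99 to 4.95 in ValR, so that every Control library lay below every restricted library. In females, it ran from -7.06 to 4.40, and each diet covered low and intermediate values. Region and diet therefore cannot be told apart in males, and the levels of region markers are given beside the results below. In such bulk tissue, fewer cells of a type and less RNA per cell also cannot be told apart.

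Sequences upstream of the genes are shown because the motifs of 2 cell-cycle control systems are known in genes of this kind. They are E2F sites in replication genes, and the CHR (cell cycle homology region) with CCAAT boxes in mitotic genes. The 250 bases before the RefSeq transcript start (GRCm38.p6) were searched on both strands for E2F (TTTCCCGC, TTTGGCGC, TTTGCCGC and TTTCGCGC), CHR (TTTGAA and TTCGAA) and CCAAT motifs. The table held 9 of the 10 genes, all but Mcm4. An E2F motif was present in 4 of the 9 (Mcm5, Mcm6, Mcm7 and Cdk1), against 1.86% of all 32851 windows. A CHR motif was present in 5 of the 9 (Mcm2, Mcm7, Mki67, Top2a and Cdk1), against 17.1% of all windows. CCAAT was present in all 9, against 33.8% of all windows. For Mcm7, which has 2 RefSeq starts, E2F and CHR motifs were found before the upstream start only. In Mcm5 and Mcm6, the E2F motifs of the 2 strands overlapped each other. The windows of Mcm2 (chr6:88898781-88899030, minus strand), Mcm5 (chr8:75109259-75109508, plus strand), Mcm6 (chr1:128359706-128359955, minus strand) and Top2a (chr11:99024190-99024439, minus strand) follow, with every motif match in capitals. Mcm2 was higher in males with 2 of the diets, Mcm5 varied with Mcm2 and Mcm7, and Mcm6 and Top2a had negative log2 fold changes in males with each diet, none of which passed.
Mcm2: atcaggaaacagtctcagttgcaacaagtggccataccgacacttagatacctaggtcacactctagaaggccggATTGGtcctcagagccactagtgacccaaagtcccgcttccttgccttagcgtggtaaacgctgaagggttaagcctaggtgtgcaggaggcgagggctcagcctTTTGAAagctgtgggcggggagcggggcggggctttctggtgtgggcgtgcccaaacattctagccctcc
Mcm5: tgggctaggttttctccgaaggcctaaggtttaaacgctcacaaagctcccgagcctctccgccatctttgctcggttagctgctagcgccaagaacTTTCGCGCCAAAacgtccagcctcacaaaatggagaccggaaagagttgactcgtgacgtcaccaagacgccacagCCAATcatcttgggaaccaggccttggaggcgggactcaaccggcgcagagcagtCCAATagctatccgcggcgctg
Mcm6: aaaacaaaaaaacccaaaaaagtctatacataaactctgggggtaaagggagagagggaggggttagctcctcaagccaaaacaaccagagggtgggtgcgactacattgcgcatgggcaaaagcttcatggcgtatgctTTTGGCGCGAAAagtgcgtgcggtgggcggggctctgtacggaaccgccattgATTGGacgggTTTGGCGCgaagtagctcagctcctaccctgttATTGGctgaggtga
Top2a: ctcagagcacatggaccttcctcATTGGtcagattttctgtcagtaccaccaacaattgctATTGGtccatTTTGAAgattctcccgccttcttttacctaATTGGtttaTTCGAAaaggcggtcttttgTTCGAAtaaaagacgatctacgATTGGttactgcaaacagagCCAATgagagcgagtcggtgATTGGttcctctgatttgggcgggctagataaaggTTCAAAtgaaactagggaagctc
The Mcm2 window held 1 CHR and 1 CCAAT match, the Mcm6 window 3 E2F and 2 CCAAT matches, and the Top2a window 6 CCAAT matches besides its CHR matches. A match of these letters was not tested for binding or for a relation to the levels. The bases after the start and other forms of these motifs were not searched, so a gene without a match is not shown to lack a site.

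The first question was how much RNA of each gene the brain held without any amino acid restriction. Per kilobase of exon, Pcna was the most abundant of the 10 genes in Control brains, followed by 5 helicase genes, and the cycling-cell genes were near the limit of detection. Pcna stood at 13.7 CPM per kb ± 0.72 (SD, n = 4) in males and 13.7 ± 1.28 (n = 6) in females. Mcm4 followed at 3.79 ± 0.175 in males and 3.61 ± 0.65 in females, and Mcm7 at 2.70 ± 0.26 and 3.06 ± 0.833 CPM per kb. Although the 6 subunits occupy the same ring, their RNA levels per length differed widely: Mcm6 was the lowest at 0.324 ± 0.104 CPM per kb in males and 0.253 ± 0.0502 in females. In the male Control libraries, Mcm3 and Mcm2 overlapped, as did each neighboring pair among Mcm6, Top2a, Mki67 and Cdk1. In the female Control libraries, overlaps ran from Mcm4 through Mcm3 and from Mki67 through Cdk1, while Pcna lay above Mcm4, Mcm3 above Mcm6 and Mcm6 above Mki67 in every library. Mki67 was at 0.133 ± 0.0722 CPM per kb in males and 0.0874 ± 0.0544 in females, and Cdk1 at 0.0654 ± 0.0463 and 0.0325 ± 0.025. With coding length in place of exon length, Mcm7 came before Mcm4 and Cdk1 before Top2a and Mki67 in both sexes, and Mcm2 came before Mcm3 in males as it did by exon length in females. These levels rested on 438 to 615 counts for Pcna, 5 to 36 for Mki67, 1 to 43 for Top2a and 0 to 11 for Cdk1 in a Control library. Cdk1 had 0 counts in female Control 29 and female LeuR 43, which allows up to 0.172 and 0.266 CPM (3 counts of the library total, counting error only).

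**Figure D1:**
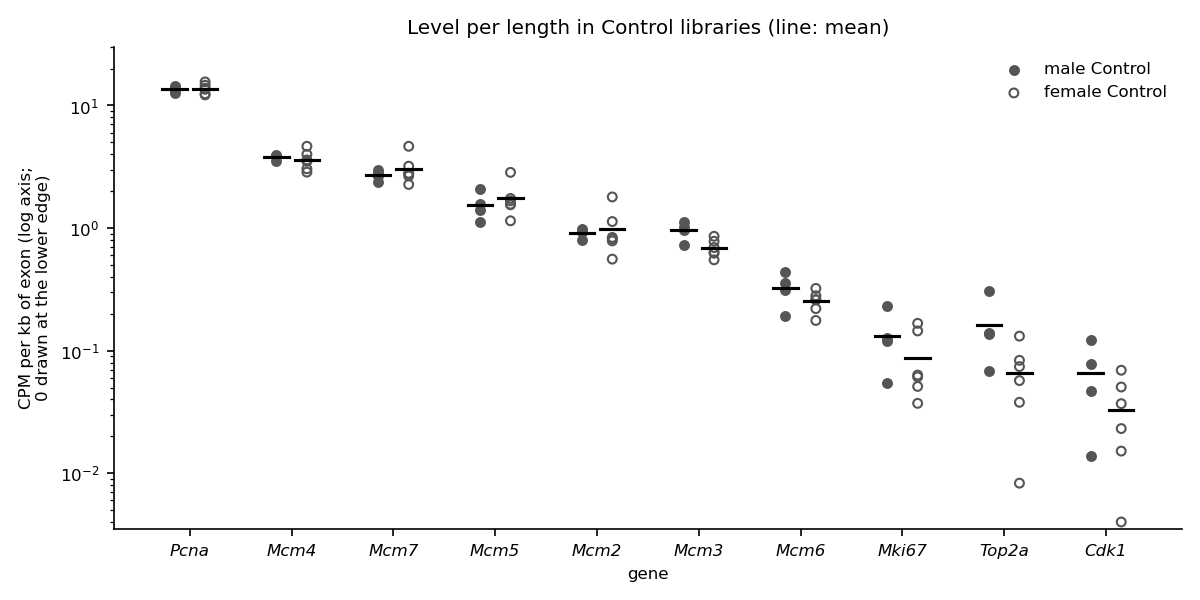
Level of the 10 genes in CPM per kb of exon (log axis) in the 4 male (filled) and 6 female (open) Control libraries, with the group mean as a line. Pcna stands above every other gene in every library, Mcm6 is the lowest helicase subunit on average at 0.324 and 0.253 CPM per kb, and Mki67, Top2a and Cdk1 lie below it on average.

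Each restricted diet was then compared with Control within each sex, and the 3 comparisons of a sex share their Control libraries. In males fed the ValR diet, 3 of the 10 genes, the helicase subunits Mcm2, Mcm4 and Mcm7, were higher than in Control at an adjusted p under 0.05, and none was lower (edgeR's quasi-likelihood test, Benjamini-Hochberg over all 22197 genes tested). Of all genes tested, 23.5% passed in either direction, 11.1% higher and 12.4% lower. At an unadjusted p under 0.05 there were 5 of the 10, against 35.2% of all genes. All 10 genes passed the filter on low counts. The median log2 fold change of the 10 genes was 0.25, against 0.03 for all genes tested.

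Mcm2 (chr6:88883474-88898780, minus strand, GRCm38), a subunit that joins Mcm5 at the gate of the ring, stood at 5.52, 6.63, 6.79 and 6.49 CPM in male Control 1, 3, 4 and 5. In male ValR 7, 9, 10 and 12 it stood at 10.7, 7.91, 13.3 and 13.4 CPM. Every ValR library was above every Control library, and ValR 9 was the lowest of the 4. The means were 6.36 ± 0.572 (SD, n = 4) and 11.3 ± 2.6 CPM (n = 4), and Mcm2 was 1.76-fold higher (log2 fold change 0.82 ± 0.21 SE, edgeR adjusted p = 0.0135).

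Mcm7 (chr5:138164583-138172422, minus strand) stood at 10.4, 12.4, 11.9 and 13.2 CPM in the same Control libraries, and at 19.1, 16.2, 18.5 and 22.9 CPM in the ValR libraries. The groups did not overlap. Mcm7 was 1.59-fold higher (log2 fold change 0.67 ± 0.15 SE, edgeR adjusted p = 0.00648). Exons of Mcm7 overlap those of Cops6 and Ap4m1 on the opposite strand, and the microRNA genes Mir25 and Mir93 lie in its exons. The kit marked strand, but whether strand was used in counting is not given in the sources used here, so a share of its reads may belong to these neighbors.

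Mcm4 (chr16:15623897-15637400, minus strand), the subunit that pairs with Mcm6 and Mcm7 in a core with helicase activity, stood at 13.8, 12.7, 14.0 and 14.0 CPM in Control 1, 3, 4 and 5, and at 17.4, 15.0, 17.7 and 18.0 CPM in ValR 7, 9, 10 and 12. Again the groups did not overlap, although the difference was the smallest of the 3. Mcm4 was 1.24-fold higher (log2 fold change 0.31 ± 0.10 SE, edgeR adjusted p = 0.0353). Its call was lost without a low-count filter (adjusted p = 0.067), with only the Control and ValR groups in the fit (0.0568) and in 7 of 14 fits that left out a library: without Control 1, 3 or 5, ValR 7, 10 or 12, or IleR 13 (0.0514 to 0.0944). Without overlap with Control, 3 of the 10 genes were higher in ValR, which are these same genes, against 13.4% of all genes tested.

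The other helicase subunits did not pass. Mcm5 (chr8:75109569-75128439, plus strand) stood at 5.66, 6.23, 4.48 and 8.25 CPM in Control 1, 3, 4 and 5, and at 9.46, 5.55, 10.7 and 11.9 CPM in ValR 7, 9, 10 and 12. Of the 4 ValR libraries, 3 were above every Control library, and ValR 9 was inside the Control range (log2 fold change 0.59 ± 0.26 SE, edgeR adjusted p = 0.124). Without ValR 9, Mcm5 passed (log2 fold change 0.78, adjusted p = 0.0328). Mcm6 (chr1:128331590-128359664, minus strand), the least abundant subunit, was the only one of the 6 with a negative value in ValR. It stood at 0.886, 1.45, 2.05 and 1.65 CPM in Control and at 0.873, 1.15, 0.88 and 0.705 CPM in ValR, on 11 to 32 counts a library (log2 fold change -0.76 ± 0.35 SE, adjusted p = 0.142). Of the 4 ValR libraries, 3 were below every Control library. Mcm3 (chr1:20802968-20820312, minus strand), the partner of Mcm5 in the ring, had a log2 fold change of 0.19 ± 0.23 (adjusted p = 0.616).

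Pcna and the cycling-cell genes also did not pass in ValR males. Pcna (chr2:132249162-132253314, minus strand) ranged from 30.6 to 34.4 CPM in Control and from 31.7 to 38.0 CPM in ValR, a log2 fold change of 0.07 ± 0.10 (edgeR adjusted p = 0.653). Pcna has the processed pseudogenes Pcna-ps1 and Pcna-ps2, with which it can share reads. Top2a (chr11:98992943-99024189, minus strand) stood at 0.613, 1.22, 2.75 and 1.26 CPM in Control 1, 3, 4 and 5, and at 1.09, 0.541, 0.704 and 0.321 CPM in ValR 7, 9, 10 and 12. The groups overlapped, and Control 4 was the highest of the 8 (log2 fold change -1.15 ± 0.49 SE, adjusted p = 0.113). Mki67 (chr7:135689784-135716361, minus strand) ranged from 0.545 to 2.31 CPM in Control and from 0.705 to 1.35 CPM in ValR, with a log2 fold change of -0.43 ± 0.43 (adjusted p = 0.532). Cdk1 (chr10:69335146-69352938, minus strand) ranged from 0.0681 to 0.605 CPM and from 0.321 to 0.676 CPM, with a log2 fold change of 0.69 ± 0.63 (adjusted p = 0.484). None of the 3 genes that mark dividing cells passed, then, in the comparison in which Mcm2, Mcm4 and Mcm7 were higher.

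Region markers moved with these values. In ValR against Control males, 16 of 16 forebrain markers were lower, 15 of 16 cerebellar markers and 13 of 16 brainstem and spinal cord markers were higher (edgeR, adjusted p under 0.05). The summed level of the forebrain markers was 940 to 2607 CPM in Control and 88.5 to 120.3 CPM in ValR. For the cerebellar markers, it was 108 to 206 CPM in Control and 2065 to 6176 CPM in ValR, and for the brainstem markers 5.01 to 23.6 and 142 to 744 CPM, with 6 of the 16 brainstem markers at 0 in all Control libraries. Among markers of cells that can divide, those of oligodendrocyte precursors summed to 610 to 718 CPM in Control and 674 to 736 CPM in ValR, with 1 of 10 higher and 2 lower. Those of neural stem cells and neuroblasts summed to 413 to 434 CPM and 350 to 528 CPM, with 1 of 12 higher and 6 lower. Tubb3 of this list is also a pan-neuronal marker here, so the list is not particular to cells that divide. Microglial markers summed to 452 to 555 CPM in Control and 313 to 534 CPM in ValR, with none of 12 higher and 4 lower, and endothelial markers to 363 to 489 and 400 to 564 CPM, with 0 of 10 past the threshold and 0 at an unadjusted p under 0.05. Of the 10 astrocyte markers, 5 were higher and 1 lower. The oligodendrocyte markers summed to 4757 to 9787 CPM in Control and 9876 to 16910 CPM in ValR without overlap, with a median log2 fold change of 0.55; 0 of 10 passed in edgeR, and 5 had an unadjusted p under 0.05. With the hindbrain score as a covariate in the male fit, none of the 10 genes and 0 of all 22197 genes passed in ValR, and the log2 fold changes were -0.22 ± 0.54 SE for Mcm2, 0.58 ± 0.44 for Mcm7 and 0.46 ± 0.27 for Mcm4 (edgeR adjusted p = 0.934, 0.746 and 0.684). The scores of Control and ValR do not overlap, and the SE of Mcm2 was 0.54 in place of 0.21.

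**Figure D2:**
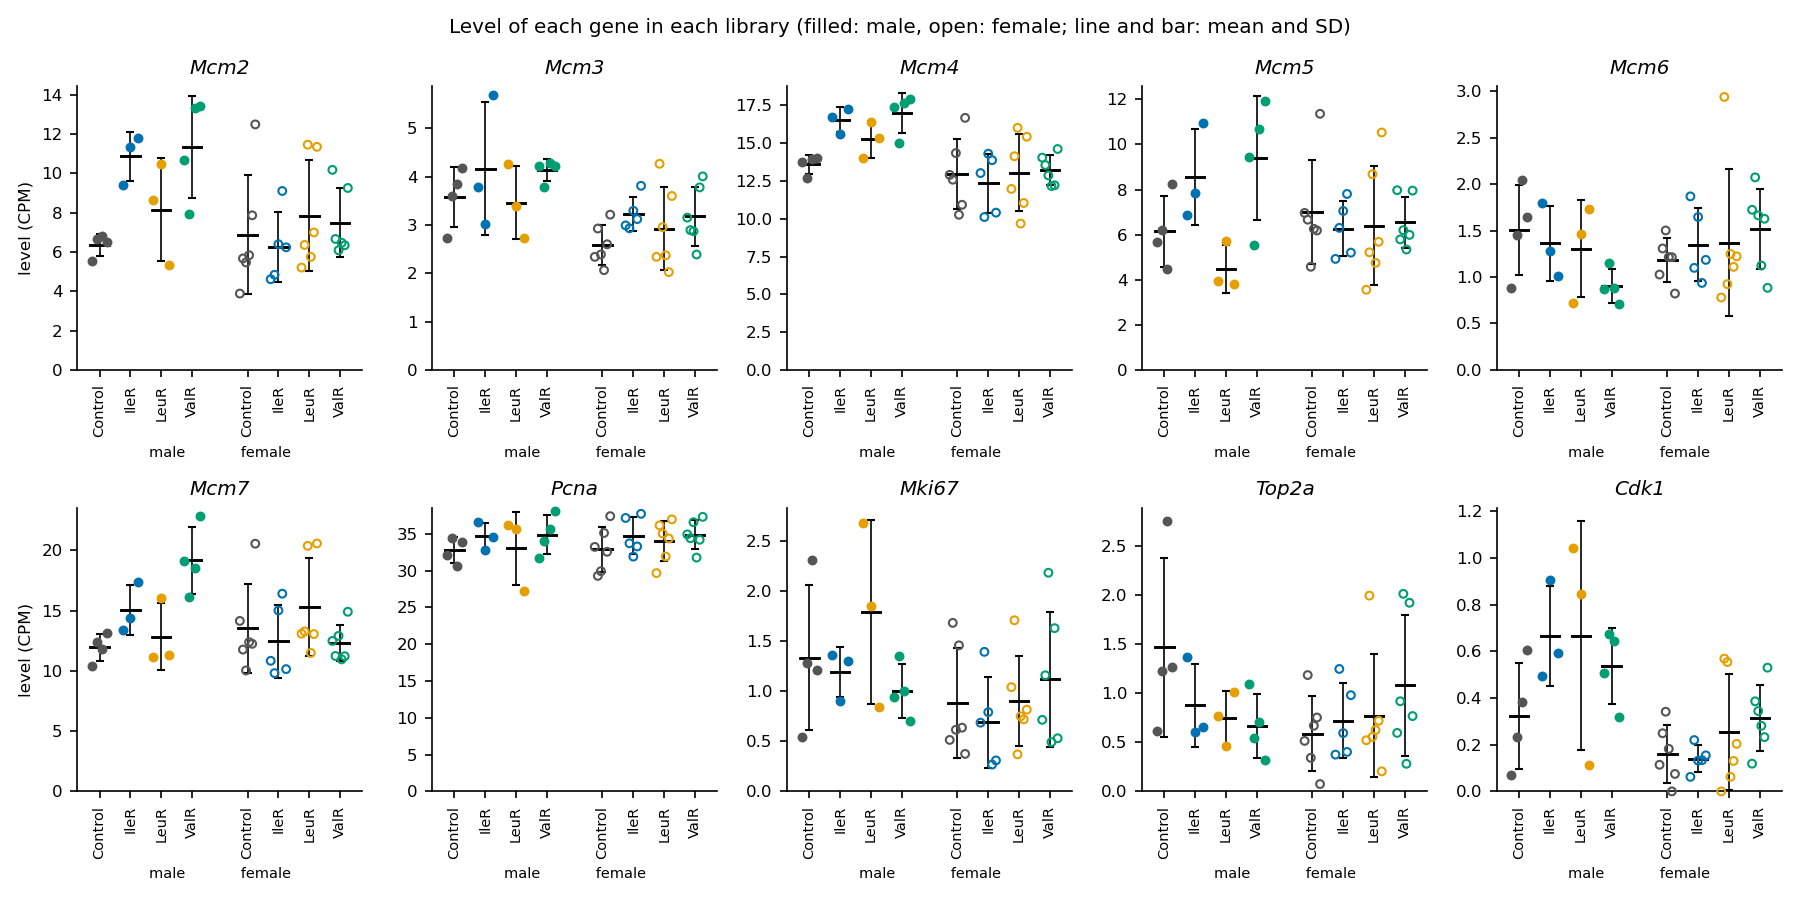
Level in CPM of each of the 10 genes in every male (filled) and female (open) library by diet, with the mean and SD of each group. Among the males, Mcm2, Mcm4 and Mcm7 of the 4 ValR libraries lie above all 4 Control libraries, as do 13.4% of all genes tested, and the female groups overlap for every one of the 10 genes, as they do for nearly all genes tested.

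In IleR males, Mcm2 alone passed. Of the 10 genes, 1 was higher and none lower, against 15.3% of all genes tested in either direction, 6.63% higher and 8.68% lower. At an unadjusted p under 0.05 there were 2 of the 10, Mcm2 and Mcm4, against 29.6% of all genes. Mcm2 stood at 9.42, 11.3 and 11.8 CPM in IleR 13, 14 and 17, all above the 4 Control libraries. It was 1.69-fold higher (log2 fold change 0.76 ± 0.23 SE, edgeR adjusted p = 0.0377). Mcm4, at 16.7, 15.6 and 17.3 CPM, and Mcm7, at 13.4, 14.4 and 17.4 CPM, also lay above every Control library, so 3 of the 10 genes were higher without overlap, against 15.1% of all genes. They did not pass, at log2 fold changes of 0.27 ± 0.10 (edgeR adjusted p = 0.0973) for Mcm4 and 0.32 ± 0.16 (adjusted p = 0.211) for Mcm7. The other values were 0.46 ± 0.28 for Mcm5, 0.20 ± 0.24 for Mcm3, -0.16 ± 0.37 for Mcm6, 0.07 ± 0.11 for Pcna, -0.18 ± 0.46 for Mki67, -0.76 ± 0.52 for Top2a and 1.01 ± 0.65 for Cdk1, all as log2 fold change ± SE. The Mcm2 call was lost in 7 of 14 fits that left out a library, namely Control 1, 3 or 5, IleR 13, 14 or 17, or ValR 7 (adjusted p from 0.0527 to 0.129). In the same comparison, 15 of 16 forebrain markers were lower, and 15 of 16 cerebellar and 10 of 16 brainstem markers were higher. Their sums in IleR were 112 to 252, 1853 to 4816 and 88.7 to 327 CPM. The oligodendrocyte markers summed to 10590 to 15420 CPM in IleR, above every Control library, with 0 of 10 past the threshold in edgeR and 6 at an unadjusted p under 0.05. Of the astrocyte markers, 3 of 10 were higher and 1 lower, and of the microglial markers 2 of 12 were lower. Of the neural stem cell and neuroblast markers, 1 of 12 was higher and 1 lower. Their median log2 fold change was -0.45, and 8 had an unadjusted p under 0.05 in edgeR. Of the oligodendrocyte precursor markers, 1 of 10 was higher and none lower. With the hindbrain score as a covariate, the log2 fold change of Mcm2 was -0.11 ± 0.47 SE (adjusted p = 0.97), and 3 of all 22197 genes passed.

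In LeuR males, none of the 10 genes passed, by edgeR, DESeq2 or limma voom, and none had an unadjusted p under 0.05 in edgeR. Of all genes tested, 10.1% passed, 3.81% higher and 6.33% lower, and 27% had an unadjusted p under 0.05. Mcm2 stood at 8.62, 10.5 and 5.31 CPM in LeuR 19, 20 and 21, so that LeuR 21 was below the lowest Control library and the other two were above the highest (log2 fold change 0.34 ± 0.23 SE, edgeR adjusted p = 0.375). Mcm5 had a negative value in this diet alone among the males, at 3.95, 5.70 and 3.80 CPM, with 2 of the 3 libraries below every Control library (log2 fold change -0.48 ± 0.29 SE, adjusted p = 0.312). Top2a had the smallest p of the 10, at 0.771, 0.462 and 1.01 CPM (log2 fold change -0.96 ± 0.53 SE, adjusted p = 0.269). LeuR 21 also had the lowest hindbrain score of the restricted male libraries, -3.48, against 3.72 in LeuR 19 and 0.83 in LeuR 20. Of the forebrain markers, 7 of 16 were lower, and 10 cerebellar and 12 brainstem markers were higher. All 11 blood markers tested had a positive value in LeuR (median log2 fold change 1.95), 2 of them past the threshold, and their sums were 2517 to 20060 CPM against 589 to 4071 CPM in Control. Neural stem cell and neuroblast markers summed to 487 to 597 CPM in LeuR and 413 to 434 CPM in Control. Of these, 2 of 12 were higher, with a median log2 fold change of -0.10. Oligodendrocyte precursor markers summed to 757 to 768 and 610 to 718 CPM, with 1 of 10 higher.

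Directly compared with one another, the 3 restricted diets did not differ in any of the 10 genes at an adjusted p under 0.05 in edgeR. ValR against LeuR came closest. Mcm5 was at 9.40 ± 2.76 CPM (SD, n = 4) in ValR and 4.48 ± 1.06 (n = 3) in LeuR, and its log2 difference was 1.07 ± 0.29 SE (edgeR adjusted p = 0.0589). Mcm7 was at 19.2 ± 2.78 and 12.8 ± 2.76 CPM, with a log2 difference of 0.58 ± 0.17 SE (adjusted p = 0.064). Of all genes tested, 2.75% passed in that comparison, 1.73% higher and 1.03% lower in ValR, and 2 of the 10 had an unadjusted p under 0.05, against 23.9% of all genes. DESeq2 called both genes (adjusted p = 0.00695 for Mcm5 and 0.0119 for Mcm7), limma voom called neither, and edgeR called both without ValR 9 (0.021 and 0.03545) or without LeuR 20 (0.0455 and 0.0306). Those fits also called more of the table: 2496 of 22197 genes with DESeq2, 1990 of 22340 without ValR 9 and 1235 of 22850 without LeuR 20. Region markers differed in the same comparison, with 3 of 16 cerebellar markers higher and 3 of 16 forebrain markers lower in ValR, and median log2 differences of 2.21 and -2.52. The blood markers summed to 2517 to 20060 CPM in LeuR and 1148 to 5661 CPM in ValR, and all 11 tested had a lower value in ValR (median log2 difference -1.51), with 0 past the threshold in edgeR and 6 at an unadjusted p under 0.05. ValR against IleR gave no member at an unadjusted p under 0.05, with Mcm7 the smallest at a log2 difference of 0.35 ± 0.16, while IleR against LeuR gave 1, Mcm5, at 0.94 ± 0.31 (adjusted p = 0.356). In edgeR, no gene of the table passed in these 2 comparisons, with 628 genes (2.83%) and 2512 genes (11.3%) at an unadjusted p under 0.05. DESeq2 called 7 and 108 genes and limma voom 0 in each.

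In females, none of the 10 genes differed from Control with any diet, and each diet group overlapped with Control for all 10. Few genes of the table were free of overlap in females: 0.108% higher and 0.138% lower in IleR, 0.123% and 0.0885% in LeuR, and 0.0786% and 0.059% in ValR. None had an unadjusted p under 0.05 in edgeR, and DESeq2 and limma voom called none. Across the table, edgeR called 0 genes in each comparison (0%), with 577 (2.84%), 820 (4.03%) and 777 genes (3.82%) at an unadjusted p under 0.05 for IleR, LeuR and ValR, while DESeq2 called 8, 1 and 0 genes and limma voom 1, 0 and 0. Mcm2 ranged from 3.88 to 12.5 CPM in female Control (median 5.75, n = 6), with 4.61, 4.84, 6.39, 9.10 and 6.23 CPM in IleR 38, 39, 40, 41 and 42. It ranged from 5.20 to 11.5 CPM in LeuR (median 6.67, n = 6) and from 6.08 to 10.2 CPM in ValR (median 6.56, n = 6). The 6 female Control libraries alone therefore spanned most of the range of the male Control and ValR libraries together, 5.52 to 13.4 CPM, although CPM was scaled in each sex apart. The Mcm2 log2 fold change was -0.13 ± 0.27 SE with the IleR diet, 0.20 ± 0.26 with LeuR and 0.13 ± 0.26 with ValR (adjusted p in edgeR of 0.968 or above in each).

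Mcm7 ranged from 10.0 to 20.6 CPM in female Control (median 12.3), from 9.82 to 16.4 in IleR (median 10.8), from 11.5 to 20.6 in LeuR (median 13.2) and from 11.0 to 14.9 in ValR (median 11.9). Mcm4 ranged from 10.3 to 16.7 CPM in Control (median 12.7) and from 12.2 to 14.6 in ValR (median 13.2). In ValR, log2 fold changes were -0.14 ± 0.18 SE for Mcm7 and 0.03 ± 0.13 for Mcm4. Mcm3 had the smallest unadjusted p in IleR and ValR females, with log2 fold changes of 0.32 ± 0.18 SE and 0.30 ± 0.18 SE. The cycling-cell genes had the widest errors: in ValR, 0.34 ± 0.46 for Mki67, 0.86 ± 0.53 for Top2a and 0.97 ± 0.59 for Cdk1.

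**Figure D3:**
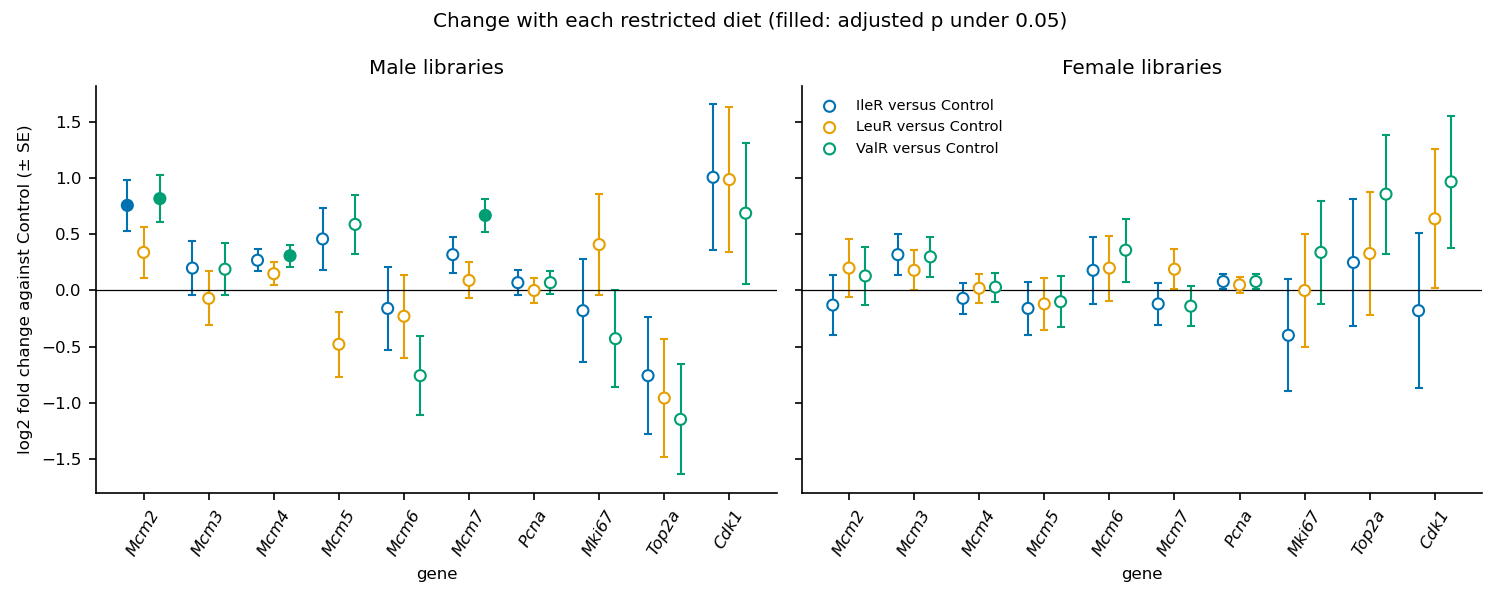
Log2 fold change ± SE of each of the 10 genes against Control for the 3 restricted diets, in males and females, with filled points at an adjusted p under 0.05. The 4 filled points are Mcm2 in male IleR and ValR and Mcm4 and Mcm7 in male ValR, and no female point is filled.

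Whether the diets acted differently in the 2 sexes was tested as an interaction in a fit of all 37 libraries. For ValR, none of the 10 genes passed in edgeR, against 4.25% of all 22465 genes tested, 0.677% with a larger and 3.57% with a smaller value in males, and 3 had an unadjusted p under 0.05, against 26% of all genes. These were Mcm7, whose change was larger in males by 0.78 ± 0.26 SE on the log2 scale (edgeR adjusted p = 0.0667), Top2a at -2.03 ± 0.79 (adjusted p = 0.107) and Mcm6 at -1.14 ± 0.45 (adjusted p = 0.114). DESeq2 called Mcm7 (adjusted p = 0.0326), limma voom called none, and edgeR called Mcm7 without female ValR 36 (0.0351) or female LeuR 45 (0.0445). Of all genes, these fits called 2343 of 22465, 2463 of 22502 and 1715 of 22481. For Mcm2, the difference was 0.66 ± 0.37 (adjusted p = 0.26). For IleR, 1 gene had an unadjusted p under 0.05, Mcm2 at 0.88 ± 0.39 (adjusted p = 0.218), and for LeuR none had, against 19.1% and 13% of all genes. At an adjusted p under 0.05, no member and 0.0979% and 0.00445% of all genes passed in these tests. Region markers moved with the interactions: for ValR, 10 of 16 forebrain markers had a lower value in males at an adjusted p under 0.05 (median log2 difference -4.76), and the cerebellar median was 5.13. For IleR, 3 of 16 forebrain markers did (median -3.52). With the hindbrain score as a covariate, the ValR values were 0.12 ± 0.24 SE for Mcm7, -0.73 ± 0.87 for Top2a, -0.40 ± 0.52 for Mcm6 and -0.58 ± 0.27 for Mcm2, and the IleR value of Mcm2 was -0.20 ± 0.27, so that both values of Mcm2 changed sign and no member passed.

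The rest of the replication and cell cycle machinery was followed in 10 lists, of which 128 of 129 genes were matched to an identifier and tested in males. In ValR males, 23 of the 128 were higher and 11 lower, a median log2 fold change of 0.09, where 11.1% of all genes were higher and 12.4% lower (median 0.03). Of 12 genes of the replicative polymerases and primase, 5 were higher and 1 lower, with a median of 0.35. Pold1, the catalytic subunit of polymerase delta, had a log2 fold change of 0.83 ± 0.14 SE (edgeR adjusted p = 0.00116), Pole, that of polymerase epsilon, 1.08 ± 0.25 (adjusted p = 0.00652), Pole3 0.41 ± 0.10 (adjusted p = 0.0101) and Pola2 0.63 ± 0.16 (adjusted p = 0.0132). Of 18 genes of clamp loading, single-strand binding and the lagging strand, 4 were higher and 1 lower. Those higher were the single-strand binding subunit Rpa1 at 0.51 ± 0.11 (adjusted p = 0.0042), the flap endonuclease Fen1 at 0.45 ± 0.11 (0.00829), the nuclease Dna2 at 0.89 ± 0.22 (0.0103) and the clamp loader Rfc4 at 0.87 ± 0.23 (0.0157).

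Genes that load and start the helicase were counted in the same comparison. Of 10 licensing genes, 2 were higher, the loader Cdt1 at 1.20 ± 0.30 (edgeR adjusted p = 0.0111) and the origin subunit Orc3 at 0.32 ± 0.09 (0.0145), with Mcmbp at 0.26 ± 0.10 (0.0737) and the Cdt1 inhibitor Gmnn at 0.49 ± 0.23 (0.141). Of 15 helicase activation genes, Tipin (0.71 ± 0.14, adjusted p = 0.00286) and Recql4 (1.09 ± 0.27, 0.0114) were higher, the checkpoint mediator Clspn was lower (-2.19 ± 0.67, 0.0305), and the helicase partner Cdc45 was at 0.59 ± 0.26 (0.116). Of 8 nucleotide supply genes, the ribonucleotide reductase subunit Rrm1 was higher (0.59 ± 0.12, adjusted p = 0.00345) and Dctpp1 lower (-0.59 ± 0.20, 0.0449), with the thymidylate synthase Tyms at 0.64 ± 0.27 (0.103). Of 3 meiotic or alternative MCM genes, Mcm9 was higher (0.56 ± 0.17, adjusted p = 0.0303), while Mcm8 was at -0.14 ± 0.24 (0.73) and Mcmdc2 at -0.49 ± 0.70 (0.679).

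Genes of mitosis and its control followed. Of 25 mitosis genes, 1 was higher and 3 lower, with a median log2 fold change of -0.25. Cdc20, an activator of the anaphase-promoting complex, was higher at 2.87 ± 0.57 (edgeR adjusted p = 0.00264), and the mitotic kinase Plk1 (-0.98 ± 0.27, 0.0171), Hmmr (-2.04 ± 0.60, 0.0255) and the centromeric histone Cenpa (-0.93 ± 0.31, 0.0479) were lower. Of 16 cyclin and kinase genes, the phosphatase Cdc25a (1.25 ± 0.12, adjusted p = 8.17e-05) and Ccne2 (0.68 ± 0.21, 0.0321) were higher, and Ccnd2 (-2.52 ± 0.34, 0.000278) and Wee1 (-0.29 ± 0.09, 0.024) were lower. Of 7 inhibitors, Cdkn1b was higher (1.18 ± 0.19, adjusted p = 0.000705), and Cdkn2d (-0.16 ± 0.09, 0.198), Cdkn2a (-0.96 ± 0.84, 0.459) and Cdkn2b (-0.49 ± 0.48, 0.518) did not pass. Of 14 E2F and pocket protein genes, 4 were higher and 2 lower. The pocket proteins Rbl1 (1.18 ± 0.26, adjusted p = 0.00497) and Rb1 (0.45 ± 0.13, 0.0205) were among the higher ones, and E2f1 (-1.50 ± 0.36, 0.00949) and E2f3 (-0.58 ± 0.16, 0.0193) were the lower ones. The same region markers moved with all of these lists. With the hindbrain score as a covariate, 0 of all 22197 genes passed in ValR males, and so no list gene. The scores of Control and ValR males do not overlap, so region and diet cannot be told apart in the lists.

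**Figure D4:**
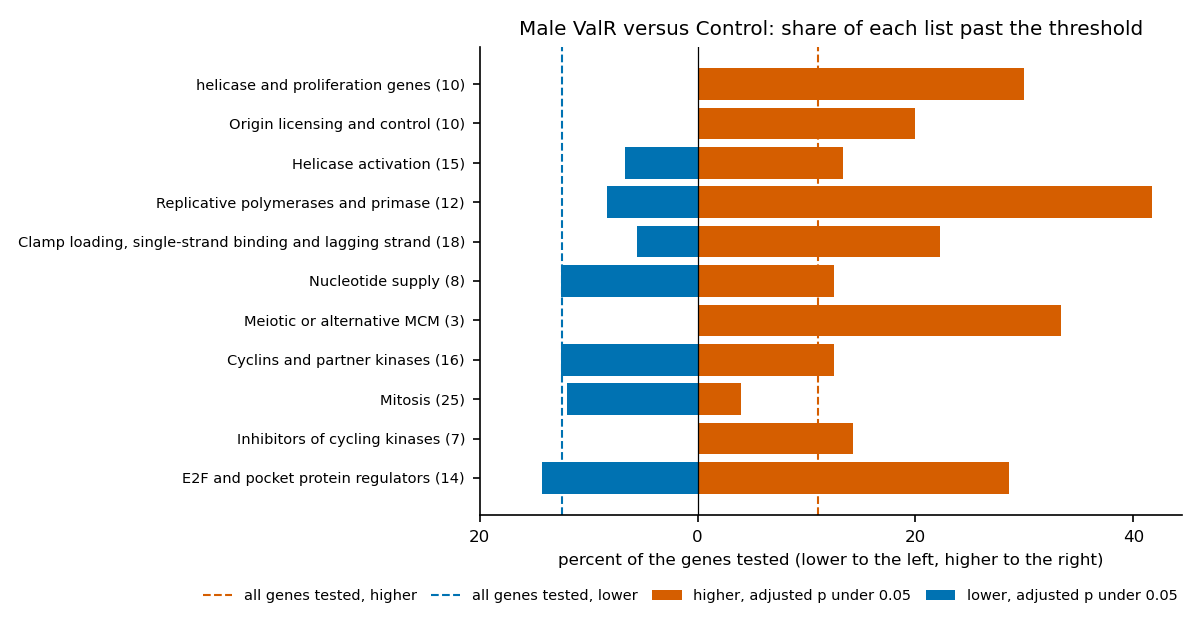
Percent of the genes tested in each list that were higher (right) or lower (left) in male ValR than in male Control at an adjusted p under 0.05, with the number tested in brackets and dashed lines at the shares of all genes tested, 11.1% higher and 12.4% lower. Replicative polymerases and primase have the highest share of higher genes, 5 of 12, and the mitosis list has 1 higher and 3 lower of 25.

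In IleR males, 12 of the 128 list genes were higher and 8 lower, a median log2 fold change of 0.12, where 6.63% of all genes were higher and 8.68% lower (median 0.04). The replication genes with the smallest p were Pold1 (0.68 ± 0.15 SE, edgeR adjusted p = 0.01), Rrm1 (0.55 ± 0.13, 0.0119), Tipin (0.61 ± 0.15, 0.0161), Cdt1 (1.18 ± 0.32, 0.023), Rpa1 (0.43 ± 0.12, 0.0239), Pole (0.85 ± 0.26, 0.0444) and Rfc4 (0.78 ± 0.25, 0.0485), all higher, and Clspn (-2.72 ± 0.76, 0.0278), lower. Of the 25 mitosis genes, Cdc20 was higher (2.48 ± 0.59, adjusted p = 0.0123), and Hmmr (-2.47 ± 0.67, 0.0252) and Plk1 (-1.04 ± 0.29, 0.0281) were lower. Cdc25a (1.09 ± 0.13, adjusted p = 0.000799), Cdkn1b (0.96 ± 0.20, 0.00651) and Rbl1 (1.07 ± 0.27, 0.0179) were higher, and Ccnd2 (-2.33 ± 0.38, 0.00175) and E2f1 (-1.47 ± 0.40, 0.0247) lower. With the hindbrain score as a covariate, only 3 of all 22197 genes passed in IleR males, so most of these list calls were lost. In LeuR males, 2 list genes were higher, Cdc25a (0.95 ± 0.13, adjusted p = 0.00359) and E2f6 (0.38 ± 0.09, 0.0221), and 3 were lower, Ccnd2 (-1.97 ± 0.37, 0.00811), Wee1 (-0.44 ± 0.09, 0.0132) and Cdc25b (-0.92 ± 0.20, 0.0157), where 3.81% of all genes were higher and 6.33% lower. None of the replication lists had a gene past the threshold there, the smallest being Gmnn (0.80 ± 0.24, adjusted p = 0.0522) and Pold2 (0.49 ± 0.15, 0.0523). In females, 0 of 126 list genes tested passed with any diet in edgeR, with 4, 3 and 3 at an unadjusted p under 0.05 for IleR, LeuR and ValR, where all genes gave 2.84%, 4.03% and 3.82%.

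The 10 genes were set against the hindbrain score in the female libraries, where the ranges of the diets overlapped, and the score used none of the 10 genes. The ranges were not equal: no IleR library was above -0.70, and the highest score, 4.40, was a single LeuR library. Across the 23 female libraries, 4 helicase genes were higher where the score was higher and 2 cycling-cell genes were lower. Pearson's r was 0.854 for Mcm2, 0.738 for Mcm7, 0.655 for Mcm4 and 0.645 for Mcm5, and -0.607 for Mki67 and -0.505 for Top2a (two-sided permutation test with 100000 permutations, adjusted over the 10 genes p = 0.0001, 0.0006, 0.00193, 0.0023, 0.00412 and 0.0242). The unadjusted p of Mcm2 was 1e-05, the smallest these permutations can give. Spearman's rho was 0.802 for Mcm2, 0.606 for Mcm4 and -0.597 for Mki67 (adjusted permutation p = 0.0001, 0.0094 and 0.0094), and 0.441 for Mcm7, 0.42 for Mcm5 and -0.463 for Top2a, for which the adjusted permutation p was 0.073, 0.0809 and 0.0668. With diet means subtracted, rho was 0.538 for Mcm7, 0.479 for Mcm5 and -0.618 for Top2a (adjusted permutation p = 0.0187, 0.0359 and 0.00607). Those permutations were not held within diets. Without the 2 libraries farthest from the median score, ValR 36 and LeuR 45, r was 0.847 for Mcm2, 0.664 for Mcm7, 0.581 for Mcm4, 0.616 for Mcm5, -0.568 for Mki67 and -0.673 for Top2a.

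Within the diets that had 6 female libraries, Control, LeuR and ValR, r of Mcm2 with the score was 0.851, 0.899 and 0.848. For Mcm7 it was 0.47, 0.906 and 0.772, and for Mki67 -0.701, -0.777 and -0.697. The 4 genes that did not pass were Mcm6 (r = -0.40, adjusted permutation p = 0.0844), Mcm3 (0.272, 0.265), Pcna (0.248, 0.281) and Cdk1 (0.163, 0.459). Many other genes followed the score as closely: of the 20344 genes tested in females, 8.72% had an r at least as far from 0 as that of Mcm2, 21.3% as that of Mcm7, 29.3% as that of Mcm4, 30.3% as that of Mcm5, 34.1% as that of Mki67 and 44.0% as that of Top2a. The female Control library with the highest score, Control 30 at 0.25, had the highest Mcm2 of all female libraries, 12.5 CPM, and 0.0748 CPM of Top2a, the lowest. In males, the score and the diet share their groups, and no correlation over the 14 libraries is given.

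**Figure D5:**
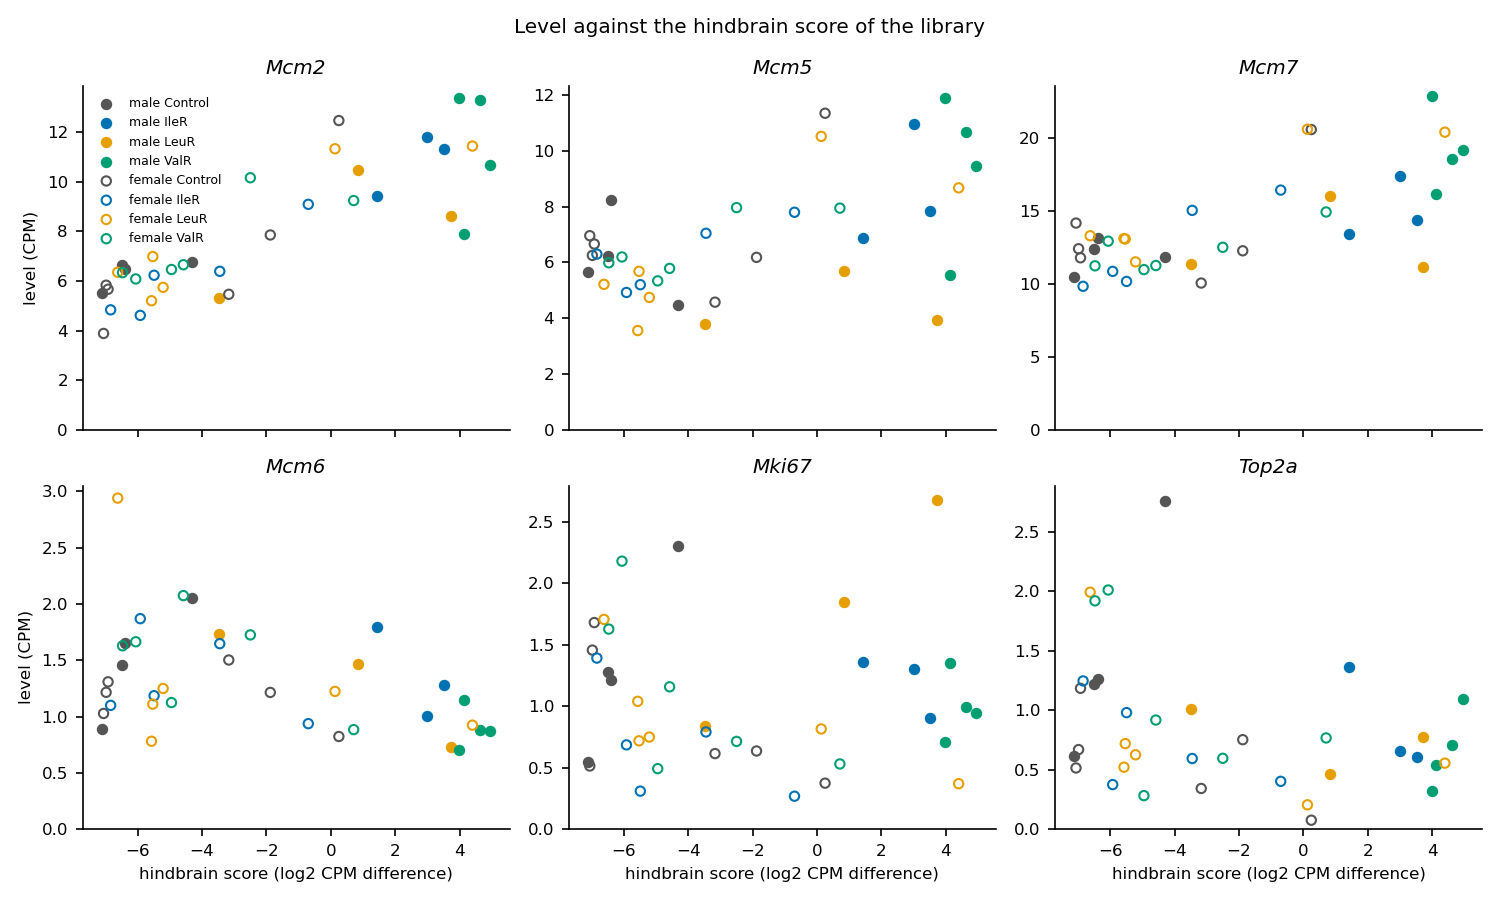
Level in CPM of Mcm2, Mcm5, Mcm7, Mcm6, Mki67 and Top2a against the hindbrain score of the library (a difference of mean log2 CPM), for male (filled) and female (open) libraries colored by diet. Mcm2 is higher at high scores in the females (r = 0.854 over the 23 libraries), Mki67 and Top2a are lower at high scores in them, and every male Control library lies left of every restricted male library.

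Among themselves, the 10 genes formed pairs that varied together across the female libraries. Of the 45 pairs, 8 had a Pearson's r with an adjusted permutation p under 0.05, all positive. The same share over other pairs of genes was not computed, and of the 7 genes in these pairs all but Mcm6 also followed the hindbrain score. The closest were Mcm5 with Mcm7 (r = 0.764, rho = 0.668), Mcm2 with Mcm5 (0.744, 0.623), Mcm2 with Mcm7 (0.729, 0.591) and Mcm4 with Mcm7 (0.689, 0.611), with an adjusted permutation p of 0.0009, 0.00135, 0.003 and 0.00315. Mki67 and Top2a formed a pair of their own (r = 0.676, rho = 0.611, adjusted permutation p = 0.00315). Mcm6 passed with Mki67 only (r = 0.535, rho = 0.552, adjusted permutation p = 0.0455), and with none of the other helicase subunits. Without the 2 libraries farthest from the median of the gene named before the other, r was 0.825, 0.635, 0.574 and 0.637 for the 4 helicase pairs, 0.554 for Mki67 with Top2a and 0.437 for Mcm6 with Mki67.

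Outside all the lists, the genes whose log2 CPM was most like the mean of Mcm2 to Mcm7 in the 14 male libraries were Lama2 (r = 0.95), Nrep (0.928), Cecr2 (0.926), Gm17491 (0.922) and A930012L18Rik (0.919), among 13996 genes. In the 23 female libraries, they were Cyp4v3 (r = 0.862), Srl (0.862), Acad8 (0.856), Tmem51 (0.854) and Zfp110 (0.849), among 13885 genes. No gene was on both lists of 5. These are the highest of many correlations, given as a description.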

How the data were processed

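Expected counts per gene were deposited by the authors in 1 table per sex, made from polyA-enriched, stranded libraries per the labels (the methods text leaves the RNA type unclear); the genome was GRCm38, and the aligner is not given in the sources used here. The authors' notes name R 3.4.3, edgeR and limma. Tables of the authors' own fold changes and p-values were not used. No per-sample column was left unused (0), and 10 labelled male libraries were not analysed here. The study's methods remove outliers after a principal component analysis of expression; which of these 10, if any, were removed in that way is not stated (the study's male groups were larger than the IleR and LeuR groups here), and such a choice could narrow the spread behind the p-values. Expected counts were rounded, and a gene was kept if some diet group had no library below 1 count for it; kept genes were fitted with edgeR 4.0.16 (TMM, quasi-likelihood test, the 4 diets of a sex in 1 fit, R 4.3.3), with Benjamini-Hochberg adjustment over all genes. Interactions used all 37 libraries. P-values measure the spread between these libraries. DESeq2 1.42.0, limma 3.58.1 (voom), other filters, the score covariate and leaving out each library were alternatives. The fits were tested on simulated data. CPM used effective library sizes, found in each sex apart, with a prior count of 2 on the log2 scale. The smallest chi-square per gene over 73 replicate pairs was 9.09, so none was a duplicate. Members and lists were chosen with earlier results of these data known. All 10 members are named, and per list up to 4 genes with the smallest adjusted p in each male comparison. The values of some list genes are not reported here.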

Additional observations from a re-analysis of the deposited data

Results flagged for a closer look

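Of 60 groups of 4 to 6 libraries examined (10 genes in 6 groups of a sex and diet), 2 held a library far from the others, and chance flags about 1 in 20 groups. Mcm3 in male ValR 9 was at 3.79 CPM (56 counts), the lowest of 4, while the others lay between 4.22 and 4.28 CPM. The same library was the lowest of its group for Mcm2, Mcm4, Mcm5 and Mcm7. Mcm6 in female LeuR 44 was at 2.94 CPM (31 counts), the highest of 6, while the others lay between 0.78 and 1.25 CPM. The same library had the highest Top2a of its group, 1.99 CPM.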

How the results depend on the processing

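The alternatives gave 3557 log2 fold changes of single members, among them the main values held to an adjusted p under 0.01. Of these, 3524 kept their side of the threshold and 10 newly passed. A further 21 no longer passed and kept their sign, and 2 no longer passed and changed sign. Among the 3524 were 142 that changed sign where neither fit passed. With the hindbrain score as a covariate, the count of members passing was 0 for IleR and 0 for ValR males, where 3 and 0 of all 22197 genes passed. The log2 fold change of Mcm2 changed sign, to -0.11 in IleR and -0.22 in ValR, and did not pass. At an adjusted p under 0.01, 0 members passed in IleR and 1, Mcm7, in ValR, where 1470 and 2779 of all genes did. With DESeq2, 2 members passed in ValR against LeuR and 1 in the ValR interaction. Leaving out 1 library at a time, the count ranged from 2 to 4 in ValR and from 0 to 1 in IleR against Control (3843 to 5990 and 1838 to 4357 of all genes). It ranged from 0 to 2 in ValR against LeuR and from 0 to 1 in the ValR interaction (0 to 1990 and 191 to 2463 of all genes). Over all alternatives, the adjusted p of the members that passed in ValR ran from 0.00179 to 0.934 for Mcm2, from 0.016 to 0.684 for Mcm4 and from 0.000375 to 0.746 for Mcm7, and that of Mcm2 in IleR from 0.0111 to 0.97, each highest with the covariate. The cause was not tested. No paired analysis was possible because each library carries its own number, so that no groups share replicate numbers. Counts under 60 for Mcm6, Mki67, Top2a and Cdk1 limit the precision of those genes.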
